A study of Homo sapiens with 6 samples.

Results

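The Rag GTPases, the Ragulator complex and folliculin were examined as 10 genes, RRAGA, RRAGB, RRAGC, RRAGD, LAMTOR1, LAMTOR2, LAMTOR3, LAMTOR4, LAMTOR5 and FLCN, taken by symbol from the 21776 genes of the count table. RNA-seq libraries had been made from SCC25, an established human oral squamous cell carcinoma line of wild-type genotype, as 3 libraries after 12 h of hypoxia (1% O2) and 3 libraries after 12 h of normoxia (incubator air). A legend of the study names SCC9, another line of the same kind, for the same experiment. The labels do not say whether the replicates were separate cultures, so the p-values measure only the spread between these libraries. The total counts ran from 29637189 to 37278703 reads per library.

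At the lysosomal surface, a Rag dimer pairs RagA or RagB with RagC or RagD, and when amino acids are plentiful the dimer recruits the kinase complex mTORC1. Ragulator, built from the 5 LAMTOR proteins, holds the dimer on the membrane, with LAMTOR1 as a lipid-anchored scaffold that wraps around the other subunits. Folliculin, together with FNIP1 or FNIP2, stimulates GTP hydrolysis by RagC and RagD, and this step governs whether mTORC1 keeps the lysosomal transcription factors TFEB and TFE3 in the cytoplasm. RRAGD is itself known as a target gene of these factors.

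All 10 genes were measurable and entered edgeR's quasi-likelihood test, in which 7 were higher and 2 lower under hypoxia, with a call meaning an adjusted p below 0.05 over all genes tested. The response to hypoxia was broad, since 77.8% of the 14255 genes tested were called, 39.2% higher and 38.5% lower, so a call by itself set no member apart. The members differed from one another in the sizes and directions of their changes. RRAGD rose 5.55-fold, FLCN, RRAGA and RRAGB rose moderately, and LAMTOR1 fell, while LAMTOR2, LAMTOR3, LAMTOR5 and RRAGC moved little and LAMTOR4 did not pass the test. Among the members only RRAGD rose by more than 1 on the log2 scale, as did 19.9% of genes tested (30.4% changed by that much in either direction). Over the 10 genes the median of the log2 fold changes was 0.28, and over all genes 0.02. The conditions did not overlap in 8 members, as in 80.5% of genes tested. Every hypoxia library lay above every normoxia library in 6 of them, as in 40.6% of genes tested, and below in 2, as in 39.9%. RNA was pooled over many cells in each library, so more RNA per cell and more cells with the RNA cannot be told apart.

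**Figure D1:**
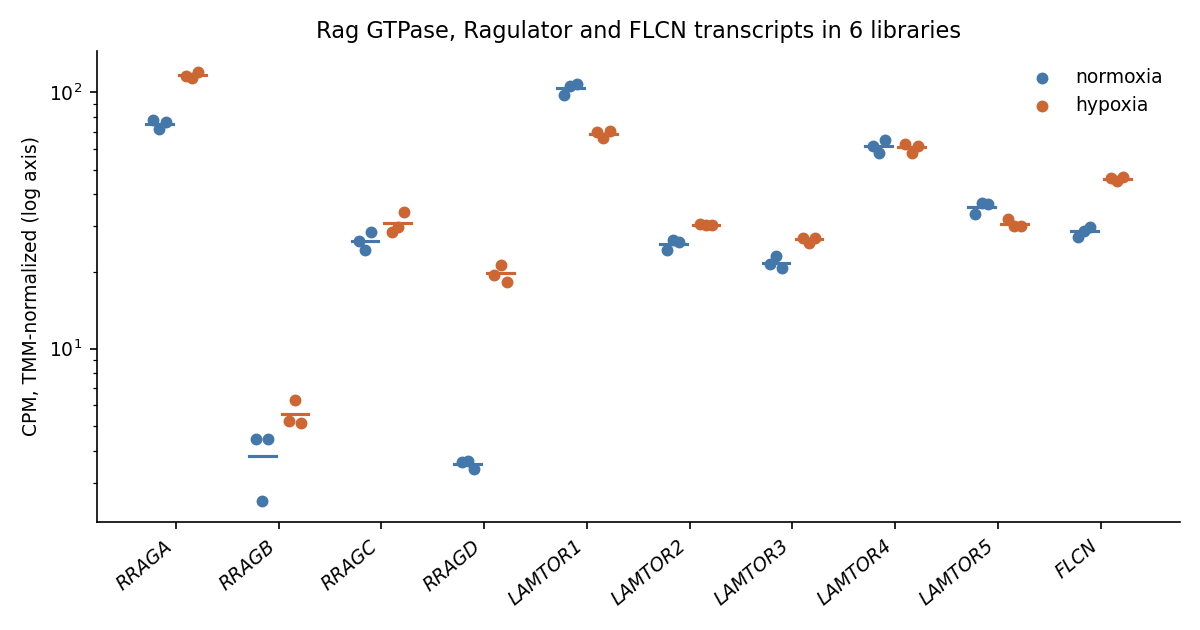
Counts per 1e6 reads of the TMM-normalized library (CPM, log axis) of the 10 genes, each point a library and each short line the mean of the 3 libraries of a condition. RRAGD has the widest gap, with normoxia libraries from 3.38 to 3.63 CPM and hypoxia libraries from 18.3 to 21.3 CPM, and LAMTOR1 lies lower in all 3 hypoxia libraries.

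The labels were checked against known genes. The hypoxia genes CA9 (carbonic anhydrase IX), VEGFA (an angiogenic growth factor) and EGLN3 (an oxygen-sensing prolyl hydroxylase) rose by 2.71, 2.80 and 6.69 on the log2 scale, and all 15 listed hypoxia response genes were called higher. Of 10 squamous epithelial markers tested, 5 were higher, 4 lower and 1 not called. KRT5 was read at 126 CPM in normoxia and 111 CPM in hypoxia, TP63 at 62.7 and 68.3 CPM, and EPCAM at 317 and 249 CPM. Normoxia replicate 3 stood apart in TP63, whose normoxia libraries were at 53.3, 52.4 and 82.5 CPM. It was also the highest normoxia library in CA9 (32.2, 27.3 and 67.7 CPM) and EGLN3 (5.86, 3.74 and 10.7 CPM). Larger changes were seen in KRT6A, a stress keratin that fell from 16.5 to 0.951 CPM, and in ITGB4, CDH1, DSG3, PKP1 and KRT17, which rose by 1.99, 1.35, 1.35, 1.21 and 1.06 on the log2 scale. ITGA6 fell by 0.68. KRT14, a defining keratin of basal squamous cells, was all but absent, with 1 count in the 6 libraries together. The summed CPM of the squamous list was 1438, 1452 and 1625 in normoxia and 2450, 2610 and 2505 in hypoxia, with ITGB4 as its most abundant gene. The fibroblast list summed to 3.95, 3.15 and 5.48 CPM in normoxia and 21.8, 18.7 and 16.9 CPM in hypoxia, most of it COL1A1, a collagen chain that rose from 3.76 to 18.0 CPM. The immune list came almost wholly from CD68 and summed to 32.8, 32.2 and 34.2 CPM in normoxia and 27.3, 31.9 and 33.9 CPM in hypoxia, while PTPRC, CD3E and LYZ stayed at 3 or fewer counts in each library. The endothelial list summed to 0.296, 0.315 and 0.744 CPM in normoxia and 1.67, 1.26 and 1.51 CPM in hypoxia. The part of these shifts in the results below was not tested.

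RRAGD and RRAGC encode RagD and RagC, the alternative partners that carry the nucleotide switch acted on by folliculin. RRAGD was read at 3.60, 3.63 and 3.38 CPM in normoxia and at 19.4, 21.3 and 18.3 CPM in hypoxia, from 100 to 134 counts per normoxia library and 593 to 792 per hypoxia library. The conditions were far apart and the libraries of each lay close together. The means of 3.54 ± 0.138 and 19.7 ± 1.52 CPM (SD, n = 3 each) gave a log2 fold change of 2.47 (SE 0.12, adjusted p = 4.21e-12, edgeR's quasi-likelihood test), larger than that of 94.4% of the genes tested. On the log2(FPKM + 1) scale, which understates changes of genes with low values, the difference was 1.57 by limma, against 2.36 with a pseudocount of 0.1. RRAGC was read at 26.2, 24.3 and 28.6 CPM in normoxia and at 28.5, 29.9 and 34.1 CPM in hypoxia. The ranges overlapped, since hypoxia replicate 1 lay below normoxia replicate 3. The log2 fold change of RRAGC was 0.23 (SE 0.085, adjusted p = 0.0222, edgeR's quasi-likelihood test), and the call was lost without hypoxia replicate 3 (log2 fold change 0.14), normoxia replicate 1 (0.21) or normoxia replicate 2 (0.16).

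RRAGA and RRAGB encode RagA and RagB, closely related GTPases that take the other place in the dimer. RRAGA was read at 78.3, 71.9 and 76.4 CPM in normoxia and at 116, 114 and 120 CPM in hypoxia. Every hypoxia library was well above every normoxia library, and RRAGA rose 1.54-fold (log2 fold change 0.63, SE 0.055, adjusted p = 1.17e-08, edgeR's quasi-likelihood test). RRAGB was far less abundant, at 4.43, 2.55 and 4.43 CPM in normoxia and 5.21, 6.29 and 5.15 CPM in hypoxia, from 73 to 234 counts per library. Normoxia replicate 2 was low within its group and hypoxia replicate 2 high within its own. The log2 fold change of RRAGB was 0.54 (SE 0.20, adjusted p = 0.0195, edgeR's quasi-likelihood test), and the call was lost without normoxia replicate 2 (0.32) or hypoxia replicate 2 (0.43). In the deposited annotation RRAGA, RRAGC and LAMTOR1 carry the GO term protein localization to membrane, of whose 25 tested genes 9 were higher and 10 lower. The study reports upregulated genes of this term. It states that its hypoxia transcriptomics data are in this deposit, although its legend names SCC9. If those genes were drawn from these libraries, a rise of RRAGA or RRAGC here is not independent evidence for them. How reads that match both paralogs of a pair were counted is not given in the sources used here. The splits between RRAGA and RRAGB and between RRAGC and RRAGD are uncertain to that extent.

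Levels of different genes were compared on the deposited FPKM, which are divided by gene length. RRAGD made up 6.96%, 7.55% and 6.05% of the summed RRAGC and RRAGD FPKM in normoxia and 27.0%, 27.9% and 22.6% in hypoxia. No libraries overlapped. The share rose by 19.0 percentage points, from 6.85 ± 0.754% to 25.8 ± 2.87% (SD, n = 3 each), with an exact two-sided permutation p of 0.1, the smallest that 3 against 3 libraries allow. The RRAGB share of RRAGA plus RRAGB was 3.27 ± 0.804% in normoxia and 3.12 ± 0.429% in hypoxia, a difference of -0.15 percentage points (exact two-sided permutation p = 0.8, n = 3 each) within the spread of the libraries. Leaving out normoxia replicate 2 took that difference to -0.61, and leaving out normoxia replicate 3 turned it to 0.11. Thus RRAGC remained the major transcript of its pair in every library, while the minor transcript RRAGD took a larger share under hypoxia. These are shares of RNA, and the make-up of the dimer was not measured. The summed FPKM of RRAGA and RRAGB was 48.1 ± 3.23 in normoxia and 76.5 ± 1.03 in hypoxia, and that of RRAGC and RRAGD was 10.4 ± 0.883 and 15.8 ± 0.912. The log2 ratio of the second sum to the first was -2.21 ± 0.075 and -2.28 ± 0.071 (difference -0.07, exact two-sided permutation p = 0.5, n = 3 each). Its sign turned to 0.13 when counts replaced FPKM.

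**Figure D2:**
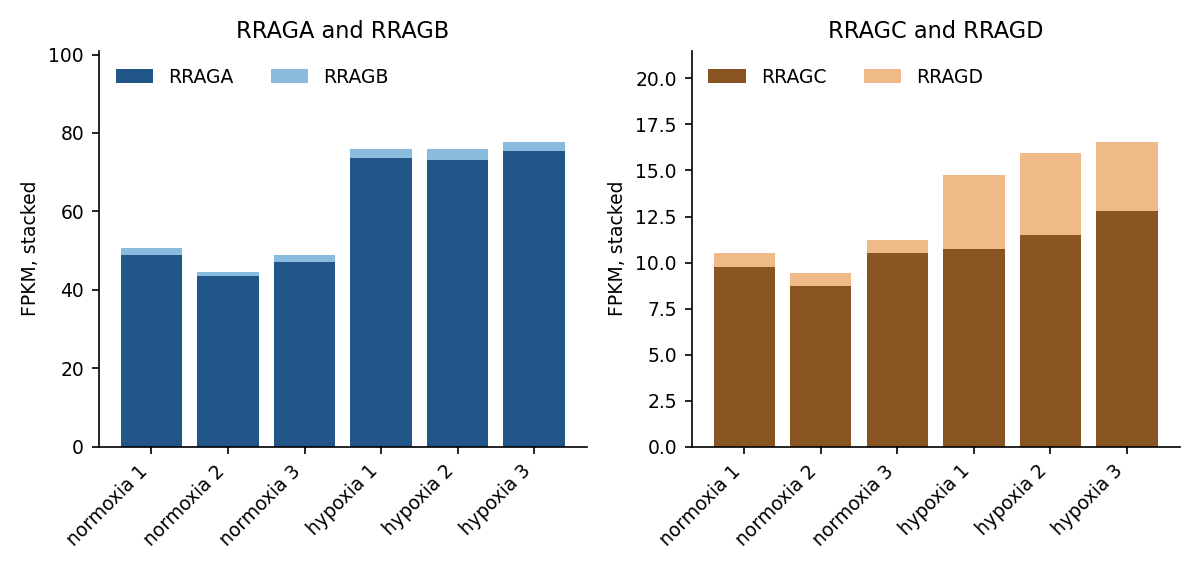
Deposited FPKM of the Rag genes stacked for each of the 6 libraries, with RRAGA and RRAGB in the first panel and RRAGC and RRAGD in the other. RRAGD takes 6.05% to 7.55% of its stack in normoxia and 22.6% to 27.9% in hypoxia, while RRAGB stays a thin layer beside RRAGA.

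Of the 5 Ragulator genes, 2 were higher, 2 lower and 1 not called. Among all genes tested, 39.2% were higher and 38.5% lower, so these counts did not set the complex apart. LAMTOR1, the scaffold, was read at 97.9, 106 and 108 CPM in normoxia and at 70.0, 66.4 and 70.9 CPM in hypoxia. All hypoxia libraries lay below all normoxia libraries. The log2 fold change was -0.59 (SE 0.057, adjusted p = 4.42e-08, edgeR's quasi-likelihood test), and 23.0% of the genes tested had a more negative value. LAMTOR2 (p14) and LAMTOR3 (MP1), which bind each other as a roadblock-fold pair, both rose slightly. LAMTOR2 was at 24.3, 26.5 and 26.1 CPM in normoxia and 30.5, 30.5 and 30.3 CPM in hypoxia, a log2 fold change of 0.25 (SE 0.072, adjusted p = 0.0047, edgeR's quasi-likelihood test). LAMTOR3 was at 21.3, 22.9 and 20.7 CPM in normoxia and 27.1, 25.9 and 27.2 CPM in hypoxia, a log2 fold change of 0.30 (SE 0.078, adjusted p = 0.00184, edgeR's quasi-likelihood test). Neither gene's ranges overlapped.

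The other roadblock-fold pair consists of LAMTOR4 and LAMTOR5. LAMTOR4 was read at 61.9, 57.9 and 65.2 CPM in normoxia and at 63.1, 58.2 and 61.7 CPM in hypoxia. The libraries of both conditions were interleaved, and the log2 fold change of -0.02 had a 95% interval from -0.14 to 0.10 (adjusted p = 0.809, edgeR's quasi-likelihood test). LAMTOR5 was at 33.6, 37.1 and 36.7 CPM in normoxia and 32.1, 30.1 and 30.1 CPM in hypoxia. It fell by 0.22 on the log2 scale (SE 0.070, adjusted p = 0.0091, edgeR's quasi-likelihood test) without overlap, and the call was lost when genes needed at least 10 counts in every library (log2 fold change -0.14, adjusted p = 0.0727).

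Per length, LAMTOR1 led the 10 genes in normoxia at 93.8 FPKM, followed by LAMTOR4 (58.9 FPKM), RRAGA (46.5 FPKM), LAMTOR5 (41.4 FPKM) and LAMTOR2 (40.6 FPKM). RRAGC (9.67 FPKM), LAMTOR3 (4.97 FPKM), FLCN (3.89 FPKM), RRAGB (1.59 FPKM) and RRAGD (0.707 FPKM) followed. Among neighbours in this order, only LAMTOR5 and LAMTOR2 overlapped between libraries. In hypoxia RRAGA came first at 74.1 FPKM, ahead of LAMTOR1 (64.4 FPKM), LAMTOR4 (60.2 FPKM), LAMTOR2 (49.8 FPKM), LAMTOR5 (36.8 FPKM), RRAGC (11.7 FPKM), FLCN (6.45 FPKM), LAMTOR3 (6.34 FPKM), RRAGD (4.06 FPKM) and RRAGB (2.39 FPKM), with no overlap between neighbours. RRAGD thus moved from the last place to the place above RRAGB. The summed FPKM of the 4 Rag genes was 58.4 ± 3.95 in normoxia and 92.2 ± 1.83 in hypoxia, and that of the 5 LAMTOR genes was 239.7 ± 8.35 and 217.5 ± 3.49. LAMTOR1 made up 39.1 ± 0.589% of the LAMTOR sum in normoxia and 29.6 ± 0.485% in hypoxia. Its ratio to LAMTOR2 was 2.31 ± 0.042 and 1.29 ± 0.046 (SD, n = 3 each, with no overlap). The highest subunit transcript, LAMTOR1, was 18.9 ± 1.42 times the lowest, LAMTOR3, in normoxia and 10.2 ± 0.091 times in hypoxia, while LAMTOR2 and LAMTOR5 moved apart.

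**Figure D3:**
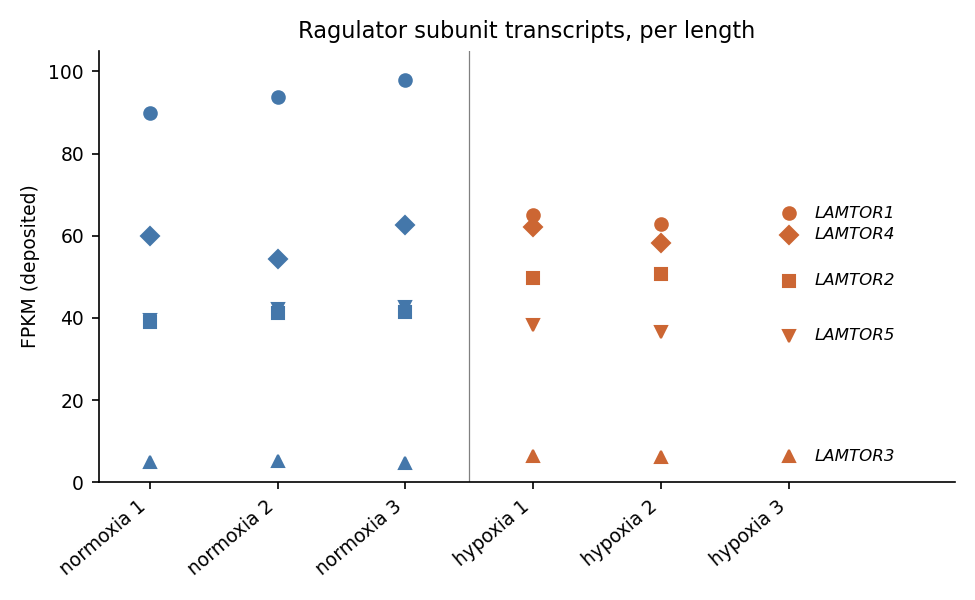
Deposited FPKM of the 5 LAMTOR genes in each of the 6 libraries, 1 point shape per gene, with a vertical line between normoxia and hypoxia. LAMTOR1 drops from a mean of 93.8 to 64.4 FPKM towards LAMTOR4, which stays near 60 FPKM.

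FLCN, which encodes folliculin, was read at 27.4, 28.9 and 29.8 CPM in normoxia and at 46.2, 45.2 and 46.8 CPM in hypoxia. The conditions were well apart, and FLCN rose 1.61-fold (log2 fold change 0.68, SE 0.065, adjusted p = 3.54e-08, edgeR's quasi-likelihood test). Its partner FNIP1 rose with it, from 30.2 ± 2.79 to 51.1 ± 2.72 CPM (SD, n = 3 each), a log2 fold change of 0.76 (SE 0.074, adjusted p = 4.90e-08, edgeR's quasi-likelihood test). FNIP2 went from 12.7 to 15.1 CPM (log2 fold change 0.25, adjusted p = 0.038, edgeR's quasi-likelihood test), a call lost in 6 of 14 alternative fits, among them those without hypoxia replicate 2 (0.15), hypoxia replicate 3 (0.28), normoxia replicate 2 (0.24) or normoxia replicate 3 (0.20). In FLCN, FNIP1, FNIP2 and RRAGD every hypoxia library lay above every normoxia library, as in 40.6% of genes tested.

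**Figure D4:**
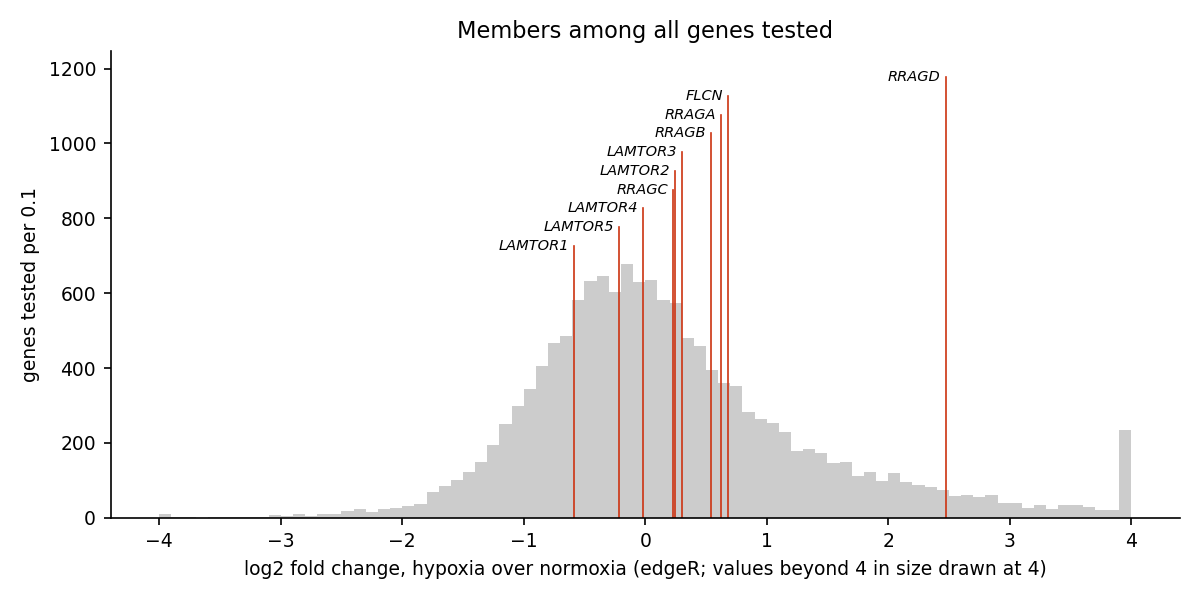
Histogram of the log2 fold changes (hypoxia over normoxia) of the 14255 genes tested, with the number of genes on the vertical axis and a labelled line at each of the 10 members. RRAGD at 2.47 stands in the right tail, LAMTOR1 at -0.59 left of the centre, and the other 8 lie between -0.22 and 0.68.

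Promoter sequence was inspected because several lysosomal genes are known to carry an E-box of the CACGTG kind, bound by TFEB, TFE3 and other factors. RefSeq promoter windows of GRCh38.p14, 250 bases before to 50 bases after the start, were matched to 8 members, and RRAGA and RRAGD had none. The motif CACGTG, searched on both strands, was found for RRAGB, RRAGC, LAMTOR1 and LAMTOR4, in 4 of the members' 10 windows, against 7.26% of all 35116 windows. Stretches that lie wholly before the start are shown so that the motif can be compared between members, with CACGTG in capitals and the flanks in lower case, read 5′ to 3′ on the gene's strand. RRAGB has a further match just after the start, which is not shown.
RRAGB, chrX:55717622-55717651, plus strand, motif 115 bases before the start: ctgagccaaggcCACGTGatgatgacagac
RRAGB, chrX:55717712-55717741, plus strand, motif 25 bases before the start: ggtagcggcagtCACGTGacagactccggg
RRAGC, chr1:38859867-38859896, minus strand, motif 112 bases before the start: aggtgattccggCACGTGacggggcaccac
LAMTOR1, chr11:72103445-72103474, minus strand, motif 165 bases before the start: ctttccccgcatCACGTGcttgcgtgtacg
LAMTOR4, chr7:100148892-100148917, plus strand, motif 14 bases before the start: agcggctgcaagCACGTGaccggggc

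The longer palindrome, CACGTG with GT before it and AC after it, was present in 0.353% of windows and was found for RRAGB only, with a match in the stretch 25 bases before the start. The 4 genes with CACGTG did not share a direction, since RRAGB and RRAGC were higher, LAMTOR1 was lower and LAMTOR4 was not called. The hypoxia response element core was searched as ACGTG, which also lies inside CACGTG, and as GCGTG, both on both strands. ACGTG was found in 6 of the 10 member windows (RRAGB, RRAGC, LAMTOR1, LAMTOR2, LAMTOR4 and LAMTOR5) and in 21.4% of all windows. GCGTG was also found in 6 (FLCN, LAMTOR1, LAMTOR2, LAMTOR3 and LAMTOR5) and in 36.5% of all windows. These are matches of letters, not measured binding.

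Neighbouring transcripts bear on how the reads of some members were assigned, because the strand setting of the counting is not given in the sources used here. In GENCODE v29, LAMTOR4 shares 356 exonic bases with TRAPPC14 on the opposite strand, and TRAPPC14 fell by 0.46 on the log2 scale (adjusted p = 3e-05, edgeR's quasi-likelihood test). LAMTOR5 shares 418 exonic bases with LAMTOR5-AS1, also on the opposite strand, which had at most 10 counts in any library and was not tested. FLCN and RRAGC share 1161 and 1183 exonic bases with same-strand transcripts AC055811.2 and AL139260.2, which have no row in the count table. LAMTOR1 shares none with another gene. The part of shared reads in these values was not tested.

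Upstream of the Rag dimer, amino acid supply is read by sensors and passed on through the GATOR complexes. The counts of calls below stand beside 39.2% higher and 38.5% lower among all genes tested. GATOR1 (DEPDC5, NPRL2, NPRL3), the GTPase-activating complex for RagA and RagB, had 1 gene of 3 called lower, DEPDC5 at a log2 fold change of -0.27 (adjusted p = 0.0489, edgeR's quasi-likelihood test), a call that 10 of the 14 alternative fits lost. NPRL2 (-0.21) gained a call in 4 alternatives and NPRL3 (-0.14) in 3, and with a library left out the number of GATOR1 genes called lower ran from 0 to 3. In GATOR2, which opposes GATOR1, 4 of 5 genes were lower and 1 higher. SEH1L fell by 1.55 on the log2 scale (87.1 to 29.8 CPM), SEC13 by 0.76, MIOS by 0.62 and WDR24 by 0.39, and WDR59 rose by 0.39. SEH1L and SEC13 are also nuclear pore subunits. In KICSTOR, which places GATOR1 on the lysosome, the 3 genes analysed, KICS2, ITFG2 and KPTN, had log2 fold changes of -1.23, -0.89 and -0.75 and were called lower. SKP2, a ubiquitin ligase subunit for RagA, fell by 0.81, and RNF152, the other Rag ubiquitin ligase listed, had 4 to 13 counts per library and was not tested.

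Among 7 amino acid sensor genes tested, 4 were higher, 1 lower and 2 not called, beside 39.2% higher and 38.5% lower among all genes tested. CASTOR1, the cytosolic arginine sensor, rose from 30, 12 and 30 counts in normoxia to 160, 161 and 156 in hypoxia. No libraries overlapped, as in 80.5% of genes tested. The log2 fold change was 2.66 (SE 0.26, adjusted p = 5.85e-08, edgeR's quasi-likelihood test). BMT2 (SAMTOR), the S-adenosylmethionine sensor, was at 7.79, 7.93 and 9.87 CPM in normoxia and 28.6, 28.1 and 28.9 CPM in hypoxia, a 3.35-fold rise. Both proteins are known as brakes on mTORC1 when their metabolite is scarce. LARS1, the leucyl-tRNA synthetase, fell by 0.52. The leucine sensor SESN2 and the lysosomal arginine sensor SLC38A9, which binds Ragulator directly, did not pass the test. SESN1 and CASTOR2 were the other genes of the list called higher, by 0.69 and 0.42 on the log2 scale.

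Downstream, all 4 tested mTORC1 genes were lower under hypoxia, as were 38.5% of all genes tested. MTOR, the kinase, was at 187, 175 and 176 CPM in normoxia and 120, 114 and 122 CPM in hypoxia, a log2 fold change of -0.59 (SE 0.053, adjusted p = 1.55e-08, edgeR's quasi-likelihood test). RPTOR, which binds the Rag dimer, had -0.40, MLST8 -0.52 and AKT1S1 (PRAS40) -0.55. Each lay lower in hypoxia without overlap, as did 39.9% of all genes tested. DEPTOR was not tested for low counts. RHEB, the GTPase that activates mTORC1 on the lysosome, fell by 0.32, while TSC1 and TSC2, whose complex switches RHEB off, rose by 0.75 and 0.33. RHEBL1 was not called (-0.42, adjusted p = 0.208, edgeR's quasi-likelihood test, and from -0.74 to -0.18 with a library left out) and TBC1D7 was not tested.

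Other lysosomal machinery that touches Ragulator had genes called in both directions. Among all genes tested 39.2% were higher and 38.5% lower. In BORC, a complex for lysosome positioning that binds Ragulator, 1 of 8 genes was higher (BORCS6, 0.81) and 2 lower (BLOC1S2, -0.69, and BORCS8, -0.60). That is 37.5% called, against 77.8% of all genes tested. Of 21 tested genes of the v-ATPase, the proton pump that docks on Ragulator, 5 were higher and 11 lower. The median log2 fold change of the v-ATPase genes was -0.26. TCIRG1 and ATP6AP2 had the largest increases (1.49 and 0.60) among those whose log2 CPM averaged 1 or more, and ATP6V0A2 and ATP6V0B the largest decreases (-1.69 and -0.93). TCIRG1 and ATP6V0A2 encode alternative isoforms of the same membrane subunit.

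The MiT/TFE transcription factors were also split. TFEB was at 1.37, 1.64 and 2.26 CPM in normoxia and 4.06, 5.08 and 4.59 CPM in hypoxia, all hypoxia libraries being higher, with a log2 fold change of 1.39 (SE 0.22, adjusted p = 1.65e-05, edgeR's quasi-likelihood test) and of 0.63 on the log2(FPKM + 1) scale. TFE3, the most abundant of the family, fell from 85.0 to 65.1 CPM (-0.39). MITF fell from 6.14 to 4.56 CPM (-0.43), a call lost without hypoxia replicate 2 (-0.31), and TFEC was not tested. Of 25 lysosomal hydrolase and membrane protein genes, 18 were higher and 4 lower, with a median log2 fold change of 0.42. Among all genes tested 39.2% were higher and 38.5% lower, with a median of 0.02. The summed CPM of the 25 genes was 2635, 2684 and 2871 in normoxia and 4303, 4378 and 4438 in hypoxia, with no overlap. Abundant genes weigh most in such a sum. CTSD, the most abundant, rose from 313 to 938 CPM (1.58), and CTSF and MANBA had the largest increases (2.59 and 1.81). GLA fell by 1.65, and MCOLN1, the lysosomal calcium channel, fell by 0.67.

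**Figure D5:**
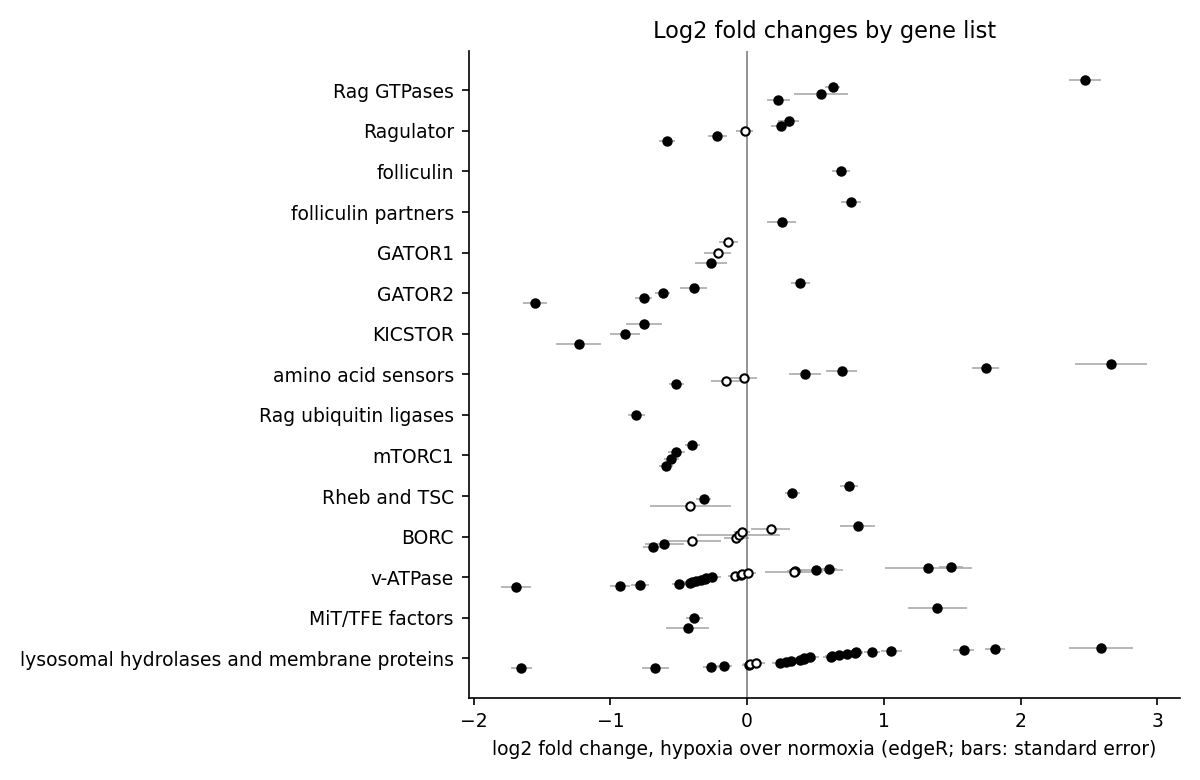
Log2 fold change (hypoxia over normoxia) of each tested gene of the member and pathway lists, 1 row of points per list, filled for called genes and open for genes not called, with bars of 1 standard error. All 4 mTORC1 points lie left of 0 and 18 of the 25 lysosomal hydrolase and membrane genes are called to the right, while Ragulator spans -0.59 to 0.30. Of all genes tested, 39.2% were called higher and 38.5% lower.

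Over all these pathway lists without the 10 members, 34 of 86 genes tested were higher and 34 lower, which is 79.1% called against 77.8% of all genes tested. Their median log2 fold change was -0.04. In the deposited GO annotation all 10 members carried the term for the lysosomal membrane, of whose 315 tested genes 131 were higher and 120 lower. They also all carried the term for positive regulation of TORC1 signaling, with 23 higher and 21 lower of 52. The genes whose log2 CPM followed RRAGD most closely over the 6 libraries were PTPRF (r = 0.99989), DDX17 (0.99962) and MSANTD2 (0.99934). The 6 points fall into 2 tight groups, and 647 genes exceeded an r of 0.99.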

How the data were processed

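SCC25 RNA-seq libraries (3 hypoxia, 3 normoxia, grouped by their labels) were used. The authors deposited whole-number read counts for 21776 genes without normalization, and FPKM of the same genes, scaled by gene length and library total. The submitters' processing notes list the mouse builds GRCm38 and mm10, although the symbols are human. The aligner, annotation and strand setting are not given in the sources used here, and no coordinates were taken from these files. Every column of per-sample values was used. The replicate number is only a name: deviations of same-numbered libraries correlated at 0.02, -0.07 and 0.001. All replicate pairs differed beyond sampling noise (chi-square per gene 5.11 to 11.5).

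Differences in counts were assessed in R 4.3.3 by edgeR 4.0.16 (glmQLFit and glmQLFTest, filterByExpr, TMM, condition as the only term) over 14255 genes, with Benjamini-Hochberg adjustment over all of them at 0.05. Standard errors came from the log2 fold change and the F statistic. CPM (counts per 1e6) were taken on TMM-adjusted totals, with a prior count of 2 before logs. Shares and ratios used the deposited FPKM, with exact permutation tests. Intervals and errors include counting error, and no level was read for a condition whose libraries all had 3 counts or fewer.

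Alternatives were DESeq2's size factors, the DESeq2 1.42.0 Wald test, no filter, a floor of 10 counts per library, the replicate block, each library left out, a log2 fold change beyond 1, counts in place of FPKM for shares, and limma 3.58.1 on log2(FPKM + 1) or + 0.1 above a mean of 1 FPKM, or without that filter. Named were all members, every gene of pathway lists of 5 or fewer, the 2 largest called increases and decreases (mean log2 CPM of at least 1) of longer lists, CA9, VEGFA and EGLN3, 3 genes most like the member with the largest change, and symbol-sharing or overlapping transcripts. SESN1, SESN2, CASTOR2, SLC38A9 and CTSD, the markers and TRAPPC14 were chosen for naming once their values were known. The members and lists were chosen with earlier results of these data known. The pathway lists do not hold every gene of each complex, and 1 listed gene is not reported here and was left out of the counts by list. On simulated counts for this comparison, edgeR found 94 of 100 genes changed by 1 and 100 of 100 changed by 2 on the log2 scale among 14091, with 3.96% of calls false. DESeq2 found 187 of 200, and limma found 184 of 200 among 13202 on simulated FPKM, with 8.91% of calls false. The simulation changed only 200 genes, by 1 or 2 on the log2 scale and with a common dispersion. In the data 77.8% of genes tested were called and most members changed by less than 1, so these rates do not carry over. Promoters came from RefSeq (GRCh38.p14, matched by Entrez number) and exons from GENCODE v29.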

Additional observations from a re-analysis of the deposited data

How the results depend on the processing

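Of 710 log2 fold changes of 51 other genes under the alternatives, 686 stayed on their side of the threshold, 17 lost a call (FNIP2, DEPDC5 and MITF) and 7 gained one (NPRL2 and NPRL3). No called value changed sign. Among values not called, LAMTOR4 changed sign in 6 of 14 alternatives (up to 0.06) and SESN2 in 5 (up to 0.05). Requiring at least 10 counts in every library moved log2 fold changes by a median of 0.077, left 1 member called lower, gave a member median of 0.35, and took LAMTOR5 to -0.14 (adjusted p = 0.0727). Limma on log2(FPKM + 1) without a filter did not call RRAGB (0.40, adjusted p = 0.0878) or RRAGC (0.25, adjusted p = 0.0623). On that scale, where the added 1 shrinks changes of genes with low FPKM, CASTOR1 had 1.52, CTSF 1.36, TFEB 0.63, MITF -0.18, KICS2 -0.65, FNIP2 0.16 and DEPDC5 -0.13, and TFEB and MITF fell below the filter of a mean of 1 FPKM where it was used. A log2 fold change beyond 1 left 2840 genes higher and 1498 lower, and 1 member higher and 0 lower. With counts in place of FPKM the RRAGD share differed by 27.1 percentage points and the log2 ratio of RRAGC plus RRAGD to RRAGA plus RRAGB by 0.13, because counts are not divided by gene length.

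Leaving out each library in turn gave 5 to 7 members higher and 2 lower, 5328 to 5770 genes higher and 5341 to 5620 lower, log2 fold changes of 0.32 to 0.66 for RRAGB and 0.14 to 0.27 for RRAGC, and an RRAGD share difference of 18.0 to 20.6 points. The count of 5 members came without normoxia replicate 2, and the lowest gene counts were without hypoxia replicate 3. With the replicate number as a block, 7 members were higher and 2 lower, with 5456 and 5419 genes, and DEPDC5 was not called; the libraries share only a number. Among tested genes described above, depth limits most those with few counts in their lowest library. Examples are CASTOR1 (12), KRT6A (18), CTSF (25), RHEBL1 (31), TFEB (47) and RRAGB (73).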
